A study of Arabidopsis thaliana with 6 samples.

Results

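The mitochondrial respiratory chain is built from subunits of separate genomes, and most of them are encoded in the nucleus, made in the cytosol and imported. Complex I takes electrons from NADH, complex II from succinate, and both hand them through ubiquinone to complex III. Cytochrome c carries the electrons on to complex IV, which reduces oxygen, and ATP synthase uses the proton gradient that this transport builds. In Arabidopsis seedlings the chain supplies ATP while stored reserves are used and organs begin to grow.

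The loci described here are 55 nuclear genes for subunits of these complexes and of cytochrome c, of 28141 features in the deposited tables. They were chosen by locus code. Complex I was represented by 22 loci, complex II by 3, complex III by 12, cytochrome c by 2, complex IV by 7 and ATP synthase by 9. All 55 were present in the files and passed the filter on low values, which asked for 0.5 FPKM in 3 libraries and left 19383 features.

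RNA came from whole seedlings of accession Col-0, 5 days old, grown on plates with 16 h light and 8 h dark at 23 °C. Wild-type and fip37-4 LEC1:FIP37 had 3 libraries each, and the latter are called the transgenic libraries below. FIP37 is a subunit of the enzyme complex that places N6-methyladenosine on mRNA, fip37-4 is a mutant allele of it, and in the transgenic plants FIP37 is expressed from the promoter of LEC1, a gene active in embryos. The labels do not say how many transgenic lines were used, nor whether replicates were grown separately, so the p-values reflect the spread of these libraries alone, part of which may be technical.

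FPKM scale the fragments of a gene by transcript length and by the mapped fragments of the library, so levels can be compared between genes. Differences are given as log2 fold changes, transgenic minus wild-type, on the scale log2(FPKM + 0.5). A gene was called where the limma p, adjusted by Benjamini-Hochberg over all 19383 features, was under 0.05. By the steps between the lowest values, 1 fragment was worth 0.0178 to 0.0254 FPKM on a transcript of 1500 nt, depending on the library. Organelle-encoded transcripts made up 50.7 to 51.2% of all FPKM in wild-type libraries and 56.9 to 60.1% in the transgenic ones. FIP37 (AT3G54170) was at 8.99, 9.03 and 8.96 FPKM in wild-type and at 80.6, 65.0 and 67.5 FPKM in the transgenic libraries. These values add transcripts of the transgene and of the endogenous gene, and the log2 fold change was 2.91 ± 0.077 (SE, n = 3 per group; adjusted p in limma = 1.97e-07).

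Nuclear respiratory genes were lower in the transgenic libraries almost without exception. Of the 55 loci, 53 fell, 0 rose and 2 did not pass the test, which is 96.4% called lower against 30.9% of all features tested and 31.8% of nuclear loci. Among all features, 27.6% were called higher. The median log2 fold change of the 55 loci was -0.84, with a range of -1.62 to -0.22, beside a median of -0.0019 and a 5th to 95th percentile of -0.77 to 0.73 over all features tested. In 53 loci every transgenic library lay below every wild-type library, an arrangement found in 34.1% of all features.

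In 32 of the loci the log2 fold change lay between -1 and -0.5. A log2 fold change of -0.5 or less was reached by 48 called loci, against 12.5% of all features, and 16 loci fell by 1 or more on the log2 scale, against 2.1% of all features. Summed over the 55 loci, wild-type libraries held 3870, 3768 and 3880 FPKM and transgenic libraries 1911, 2139 and 2158 FPKM. The transgenic mean was 53.9% of the wild-type mean. As a share of the summed FPKM of nuclear loci, the 55 genes took 0.772 to 0.779% in wild-type and 0.404 to 0.416% in the transgenic libraries, so the groups were also apart on a scale that leaves out organelle transcripts. In RNA from whole seedlings, fewer cells of a type and less RNA per cell cannot be told apart.

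**Figure D1:**
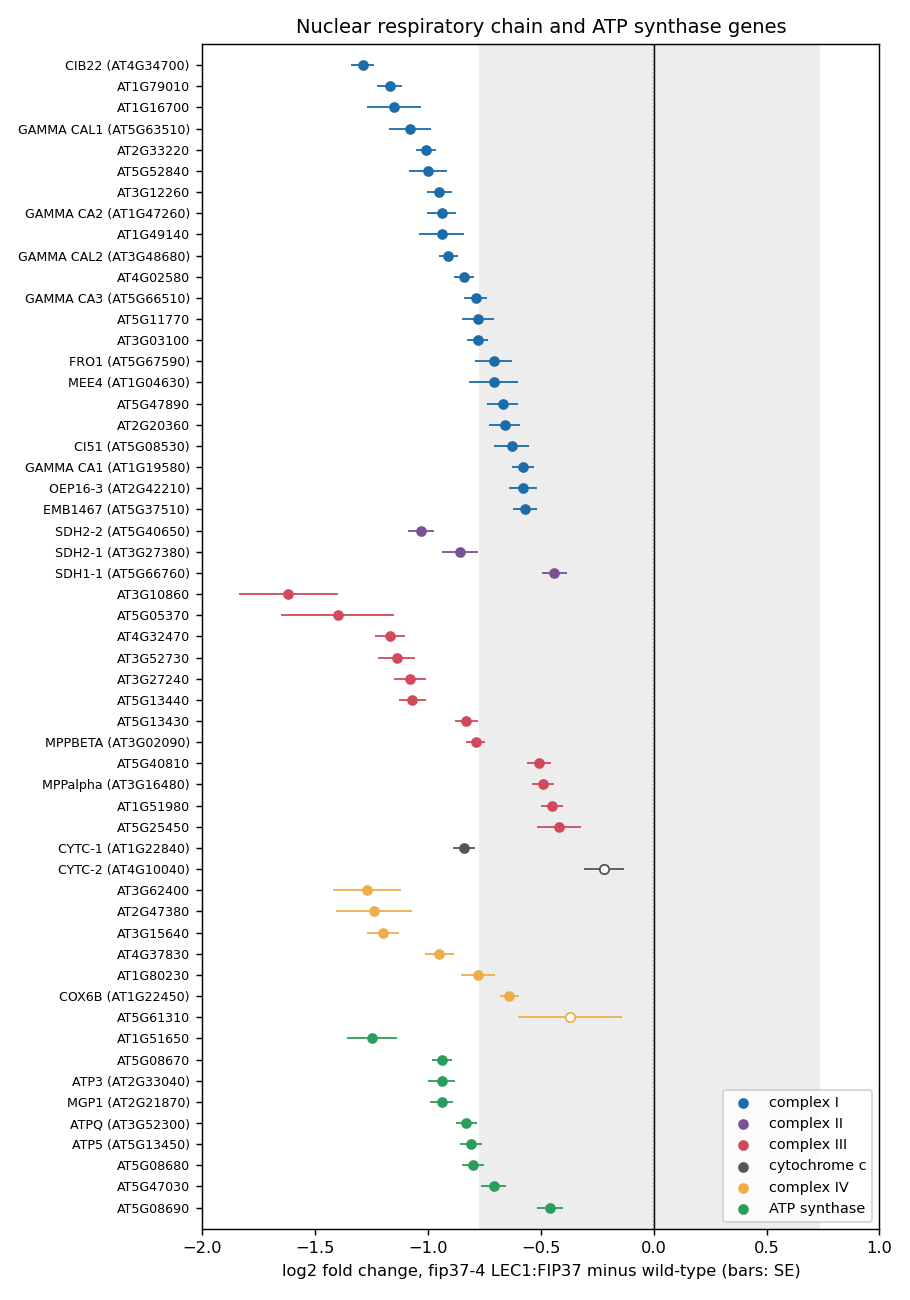
Log2 fold change (transgenic minus wild-type, n = 3 libraries per group) of each of the 55 loci, grouped by complex, with bars for the standard error; filled points passed the test and open points did not, and the grey band spans the 5th to 95th percentile of all features tested. All 55 points lie left of 0, the 2 open ones are CYTC-2 and AT5G61310, and the lowest point is AT3G10860 at -1.62.

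Marker lists for tissues and cell states also differed between the groups, and their part in the respiratory result was not tested. The counts below stand beside 27.6% of all features tested called higher and 30.9% called lower. Of 7 mitosis markers 5 fell and 0 rose, and their summed level was 64.8 to 68.9 FPKM in wild-type and 46.5 to 48.7 FPKM in the transgenic libraries. The most abundant of them, CDC2 (AT3G48750), had means of 23.4 and 23.1 FPKM and no call. Seed markers rose in 4 of 4 cases, from sums of 4.16 to 4.88 FPKM to sums of 17.6 to 18.1 FPKM. One of them, OLEO1 (AT4G25140), was at 0.377, 0.656 and 0.716 FPKM in wild-type and at 3.01, 2.78 and 2.81 FPKM in the transgenic libraries. Its wild-type libraries alone would not have passed the filter, so its call is no independent support for a rise in that list. Of 6 tested root markers 3 rose and 2 fell, with sums of 1133 to 1158 FPKM and 1152 to 1199 FPKM. These sums were nearly all PYK10 (AT3G09260), which had means of 1131 and 1154 FPKM and no call. Of 7 shoot markers 4 rose and 3 fell, with sums of 10412, 10319 and 10436 FPKM in wild-type and 16034, 18488 and 18751 FPKM in the transgenic libraries. Most of these sums came from RBCS1A (AT1G67090), with means of 6787 and 12208 FPKM, and CAB2 (AT1G29920), with 2887 and 4177 FPKM. The 3 that fell, SPCH, MYB0 and TMM, had wild-type means of 2.35, 2.08 and 9.02 FPKM and hardly enter the sums. The root marker MYB66 (AT5G14750) was called lower at 0.236, 0.315 and 0.331 FPKM in the transgenic libraries. The shoot marker MYB0 (AT3G27920) was called lower at 0.305, 0.153 and 0.285 FPKM there. Both passed the filter through the wild-type libraries alone, so their calls are no independent support for a fall in these lists. With a filter of 1 FPKM, MYB66 was not tested, and 3 of 5 root markers rose and 1 fell. The shoot counts stayed at 4 and 3. No root, shoot, mitosis or seed marker was at 0 in any library. The 4 pollen and flower markers stayed under the filter, with sums of 0.135 to 0.236 FPKM and 0.224 to 0.428 FPKM, and AT5G45880 among them was listed at 0 in all but the third transgenic library.

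**Figure D2:**
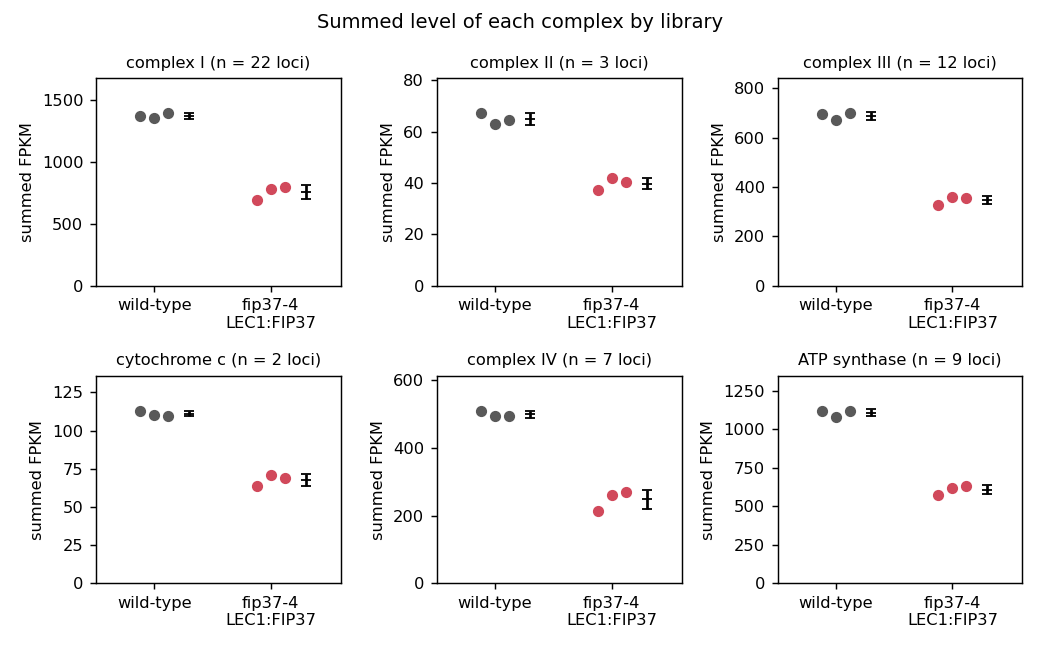
Summed FPKM of the loci of each complex in each library, in the order of the replicate numbers, with the mean and standard deviation of 3 libraries at the right of each group; every vertical axis starts at 0. In each panel all transgenic libraries lie below all wild-type libraries, and complex IV and complex III have transgenic means of 49.7% and 50.5% of wild-type.

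Complex I, the entry point for electrons from NADH, fell in all 22 loci. Their summed level was 1365, 1348 and 1392 FPKM in wild-type and 693, 782 and 797 FPKM in the transgenic libraries, 55.3% of the wild-type mean. The median log2 fold change was -0.81, and the range ran from -1.29 to -0.57. No complex I locus had overlapping groups.

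CIB22 (AT4G34700), an accessory subunit of the LYR family, had the highest wild-type mean of the 22 and fell most. It was at 103, 97.6 and 105 FPKM in wild-type and at 39.1, 42.2 and 42.8 FPKM in the transgenic libraries. All transgenic values lay far below all wild-type values. The log2 fold change was -1.29 ± 0.052 (SE, n = 3 per group; adjusted p in limma = 1.11e-06), the smallest p among the 55 loci. AT5G47890, an accessory subunit that was highest in the mean over both groups, was at 101, 94.9 and 97.3 FPKM against 57.1, 59.4 and 67.9 FPKM. Its groups were apart too, and it fell by 0.67 (limma adjusted p = 6.46e-05), or by 0.37 under quantile normalization.

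The iron-sulfur subunit that leads electrons towards ubiquinone is encoded by AT1G79010 and AT1G16700. AT1G79010 was at 64.0, 61.3 and 64.9 FPKM in wild-type and at 26.0, 28.1 and 29.3 FPKM in the transgenic libraries. AT1G16700 was at 33.3, 31.9 and 34.7 FPKM against 11.9, 16.3 and 16.4 FPKM. Both were separated from wild-type in every library, and their log2 fold changes were -1.17 ± 0.055 and -1.15 ± 0.12 (SE; adjusted p in limma = 1.86e-06 and 0.000105). Over the 6 core loci of the matrix arm, which hold the flavin and the iron-sulfur clusters, the median was -0.81 and the sum was 56.2% of wild-type.

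Plant complex I carries a domain of gamma carbonic anhydrases on its membrane arm, and all 5 of its loci fell, with a median log2 fold change of -0.91. GAMMA CAL1 (AT5G63510), one of the carbonic anhydrase-like subunits, was at 41.3, 38.1 and 38.4 FPKM in wild-type and at 15.7, 18.8 and 20.6 FPKM in the transgenic libraries, a log2 fold change of -1.08 ± 0.092 (SE; adjusted p in limma = 3.09e-05). GAMMA CA2 (AT1G47260) was the most abundant of the domain and went from a mean of 69.8 to one of 36.3 FPKM. The smallest fall of the domain, -0.58, was that of GAMMA CA1 (AT1G19580), from 15.9 to 10.5 FPKM. The 11 accessory loci had a median of -0.78. MEE4 (AT1G04630) and AT2G33220, both of the GRIM-19 type, were among them with -0.71 and -1.01.

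Complex II, which oxidises succinate and also belongs to the tricarboxylic acid cycle, was represented by 3 catalytic loci, and all fell. SDH2-2 (AT5G40650), an iron-sulfur subunit, was at 19.1, 17.3 and 16.9 FPKM in wild-type and at 8.38, 8.56 and 8.32 FPKM in the transgenic libraries. The other gene for that subunit, SDH2-1 (AT3G27380), was at 16.6, 16.2 and 16.3 FPKM against 7.62, 9.30 and 9.55 FPKM. Neither had overlapping groups, and their log2 fold changes were -1.03 ± 0.057 and -0.86 ± 0.080 (SE; adjusted p in limma = 3.56e-06 and 4.2e-05). The flavoprotein gene SDH1-1 (AT5G66760) fell by 0.44, from a mean of 30.8 to one of 22.6 FPKM (limma adjusted p = 0.000226), one of the smaller falls of the 55, and by 0.27 under quantile normalization.

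Complex III, the cytochrome bc1 complex, fell in all 12 loci and held the widest range, from -1.62 to -0.42, with a median of -0.95. Its 5 small subunits had a median of -1.17 and a summed level of 40.3% of wild-type. Its 4 redox loci, for cytochrome c1 and the Rieske iron-sulfur protein, had a median of -0.95 and a sum of 54.6%. Its 3 core loci, which in plants also form the peptidase that removes import signals, had a median of -0.49 and a sum of 64.6%. These subgroup values are descriptions, and the differences between subgroups were not tested.

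The largest fall of the 55 loci was that of AT3G10860, which encodes the small subunit 8 of the complex. It was at 109.6, 102 and 115 FPKM in wild-type and at 24.9, 45.8 and 37.2 FPKM in the transgenic libraries. The first transgenic library was the lowest, and the highest transgenic value was still below every wild-type value. The log2 fold change was -1.62 ± 0.22 (SE; adjusted p in limma = 0.00128). Its paralog AT5G05370 was at 40.8, 40.6 and 41.5 FPKM against 10.2, 21.0 and 16.4 FPKM, with the same order of the transgenic libraries and a log2 fold change of -1.40 ± 0.25 (limma adjusted p = 0.005). Without the first transgenic library the changes were -1.39 and -1.12.

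AT4G32470, another small subunit, went from 64.6, 62.5 and 66.6 FPKM to 25.7, 29.0 and 30.7 FPKM, a log2 fold change of -1.17 ± 0.067 (SE; adjusted p in limma = 4.24e-06). Its paralog AT5G25450 was the least abundant of all 55 loci, at 3.79, 3.61 and 2.93 FPKM against 2.39, 2.38 and 2.55 FPKM. At least 66 fragments lay behind each of those values by the step estimate, and the log2 fold change was -0.42 ± 0.097 (SE; adjusted p in limma = 0.00594). That call was lost when the libraries were centred on nuclear loci and a trend with transcript length was removed (-0.25, limma adjusted p = 0.0586). AT3G52730, the small subunit 9, fell by 1.14, and there the second transgenic library was the lowest, with 54.3, 42.3 and 49.2 FPKM against 109.5, 105 and 107 FPKM in wild-type.

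Cytochrome c is encoded by CYTC-1 and CYTC-2, and only the more abundant gene passed the test. CYTC-1 (AT1G22840) was at 89.5, 88.8 and 90.8 FPKM in wild-type and at 47.1, 51.1 and 51.6 FPKM in the transgenic libraries. Its groups were far apart, and the log2 fold change was -0.84 ± 0.049 (SE, n = 3 per group; adjusted p in limma = 4.36e-06), or -0.56 under quantile normalization. CYTC-2 (AT4G10040) was at 23.0, 21.3 and 18.8 FPKM against 16.3, 20.0 and 17.6 FPKM. Its groups overlapped, because the second transgenic library lay above the third wild-type library, and the log2 fold change was -0.22 ± 0.090 (SE; adjusted p in limma = 0.0617). It was called lower without wild-type replicate 3 (-0.30, limma adjusted p = 0.0262), without transgenic replicate 2 (-0.30, 0.0205) and after nuclear sums were made equal (-0.25, 0.029), and was at -0.03 once the length trend was removed and at -0.07 under quantile normalization.

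Complex IV, cytochrome c oxidase, fell in 6 of 7 nuclear loci, with a median of -0.95 and a sum of 49.7% of wild-type. AT4G37830, for the small subunit VIa, had the highest level of all 55 loci. It was at 222, 206 and 209.6 FPKM in wild-type and at 101, 112 and 118 FPKM in the transgenic libraries, a log2 fold change of -0.95 ± 0.064 (SE; adjusted p in limma = 8.3e-06). AT3G15640, which encodes a zinc-binding subunit of type Vb, was at 28.0, 28.2 and 30.5 FPKM against 11.5, 11.9 and 13.6 FPKM, with -1.20 ± 0.069 (limma adjusted p = 4.27e-06). In both genes every transgenic library was below every wild-type library.

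The small membrane subunit Vc is encoded by 3 of the loci, of which 2 passed the test. AT3G62400 went from 72.9, 74.2 and 71.0 FPKM to 23.0, 34.1 and 34.0 FPKM, and AT2G47380 from 111, 104 and 101 FPKM to 33.2, 52.4 and 49.8 FPKM. The first transgenic library was the lowest for both, and the log2 fold changes were -1.27 ± 0.15 and -1.24 ± 0.17 (SE; adjusted p in limma = 0.000364 and 0.000962). AT5G61310, the least abundant of the 3, was at 6.39, 10.6 and 9.18 FPKM against 4.96, 6.76 and 8.13 FPKM. Its groups overlapped and it did not pass the test (-0.37 ± 0.23, limma adjusted p = 0.209), although it was called without wild-type replicate 1 (-0.57, limma adjusted p = 0.049). It was at -0.19 without the length trend, at -0.22 without wild-type replicate 2 and at -0.19 without transgenic replicate 1. AT5G61310 has 4 listed transcripts, of which transcript 3 fell from a mean of 3.40 to 1.27 FPKM (log2 fold change -1.19, limma adjusted p = 0.0371 over transcripts), while transcript 1 was at 2.20 and 2.95 FPKM (0.22, adjusted p = 0.677).

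ATP synthase, which makes ATP from the proton gradient, fell in all 9 nuclear loci, with a median of -0.83 and a sum of 55.0% of wild-type. AT1G51650, the epsilon subunit of the central stalk, was at 131, 124 and 119.6 FPKM in wild-type and at 43.4, 59.3 and 55.7 FPKM in the transgenic libraries, a log2 fold change of -1.25 ± 0.11 (SE; adjusted p in limma = 4.4e-05). ATP3 (AT2G33040), the rotating gamma subunit, was at 134, 127 and 137 FPKM against 63.9, 72.1 and 71.9 FPKM, with -0.94 ± 0.061 (limma adjusted p = 6.96e-06), or -0.62 under quantile normalization. Both stalk genes were lowest in the first transgenic library, without overlap between groups.

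MGP1 (AT2G21870), a plant subunit of the enzyme needed in pollen, was the most abundant ATP synthase locus, at 186, 179 and 189 FPKM in wild-type and at 91.6, 96.9 and 100.1 FPKM in the transgenic libraries. Its log2 fold change was -0.94 ± 0.050 (SE; adjusted p in limma = 3.17e-06). The catalytic beta subunit is encoded by 3 neighbouring genes whose coding sequences are 90.5 to 94.4% identical, so reads may be split between them and their separate values are uncertain. AT5G08670 went from a mean of 129 to one of 67.0 FPKM and AT5G08680 from 56.3 to 32.0 FPKM. AT5G08690 went from 99.9 to 72.3 FPKM, and the 3 log2 fold changes were -0.94, -0.80 and -0.46. Under quantile normalization that of AT5G08670 was -0.63 and that of AT5G08690 was -0.16 (limma adjusted p = 0.0108). AT5G08680 and AT5G08690 are named here after their values were seen.

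Many subunits have a pair of nuclear genes, and the share of the first gene in the summed FPKM of its pair was compared for 12 pairs. The groups did not overlap in 7 pairs. How often shares are apart in pairs of other genes was not counted, so this count has no background of its own. The transgenic share was lower in 5 of these pairs and higher in 2. For single features, every transgenic library lay below every wild-type library in 34.1%. That share leaves out features apart in the other direction, so it is not a like background for a count of both directions. With 3 libraries against 3, each of the 7 pairs reached p = 0.1 in an exact two-sided permutation test, the smallest the design allows. After adjustment over the 12 pairs it was 0.171, so no pair passed. Coding sequences of the pairs were 72.9 to 93.4% identical, and the most alike pairs may share reads.

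The largest shift in share was between the cytochrome c1 genes. AT3G27240 made up 52.8, 52.2 and 53.4% of the pair with AT5G40810 in wild-type and 41.3, 42.6 and 44.3% in the transgenic libraries. AT3G27240 fell by 1.08 and AT5G40810 by 0.51 on the log2 scale, the latter by 0.31 under quantile normalization. The share of CYTC-1 in cytochrome c was 79.6, 80.6 and 82.8% in wild-type and 74.2, 71.9 and 74.6% in the transgenic libraries. For the zinc-binding subunit of complex IV, AT3G15640 took 52.2, 50.2 and 53.0% of the pair with AT1G80230 in wild-type and 45.7, 41.9 and 45.5% in the transgenic libraries. In all 3 pairs the gene with the larger share in wild-type was the one with the larger fall.

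Shares also separated in smaller steps. AT4G32470 made 94.9 ± 0.745% of its pair in wild-type and 92.1 ± 0.512% in the transgenic libraries (SD, n = 3), and AT3G10860 made 72.6 ± 1.01% and 69.7 ± 1.15%. Higher shares were found for the Rieske gene AT5G13430 beside AT5G13440, with 42.2 ± 0.562% and 46.3 ± 0.844%, and for GAMMA CA1 beside GAMMA CA2, with 18.6 ± 0.842% and 22.5 ± 1.98%. The 5 pairs with overlapping shares were AT1G51980 and MPPalpha, SDH2-1 and SDH2-2, AT1G79010 and AT1G16700, MEE4 and AT2G33220, and GAMMA CAL1 and GAMMA CAL2. Their differences between group means lay between -3.0 and 4.73 percentage points.

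**Figure D3:**
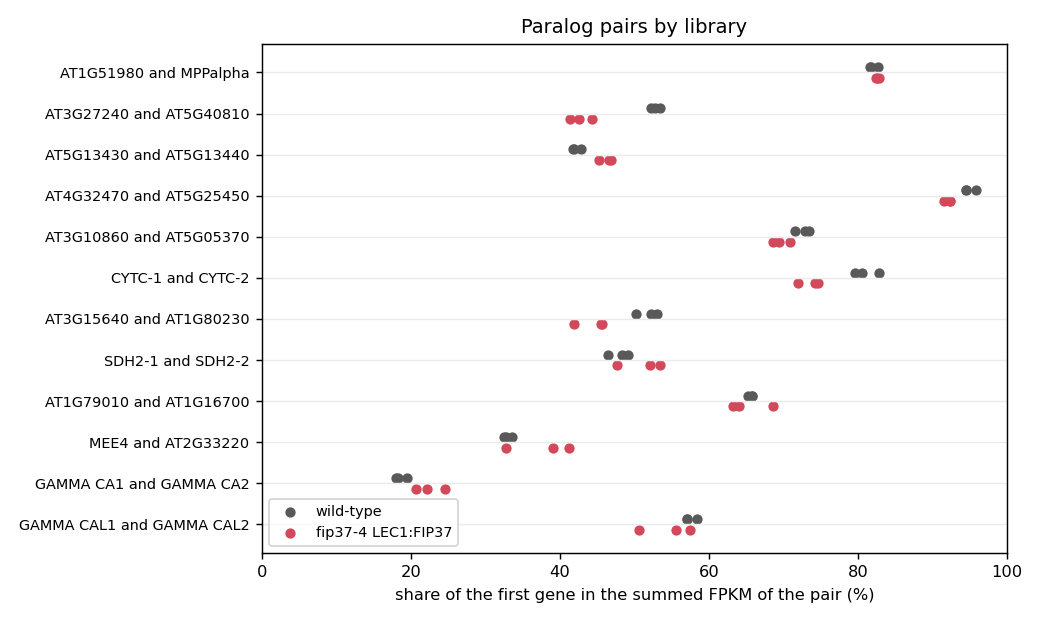
Share (%) of the first named gene in the summed FPKM of each of 12 paralog pairs, with a point for each of 3 wild-type and 3 transgenic libraries. The points of the groups are apart in 7 pairs, with the widest gap between AT3G27240 and AT5G40810, where wild-type lies at 52.2 to 53.4% and the transgenic libraries at 41.3 to 44.3%.

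Single transcripts were examined where a locus lists several. Of the 55 loci, 20 had several listed transcripts, 44 in all, of which 29 passed the filter. Of these 29 transcripts, 22 fell and 0 rose, against 25.1% of all tested transcripts called lower.

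Shorter respiratory genes tended to have the larger falls. Across the 55 loci, the Spearman correlation of the log2 fold change with the transcript length was 0.36, a description over genes measured in the same 6 libraries. The median length of the 55 was 1167.5 nt, with a range of 420 to 2807 nt, whereas that of all nuclear loci tested was 1664.5 nt. The trend of the log2 fold change with length over nuclear loci had a median of -0.11 at the 55 loci, and the median log2 fold change was -0.77 without that trend. The first transgenic library was the lowest of the 3 for 43 of the 55 loci, beside 51.9% of all 5999 features called lower, and without it the median was -0.80.

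Upstream of the set, a short motif was more frequent than in all such windows. It is known from promoters of mitochondrial and ribosomal protein genes in plants and is called site II. It was searched as TGGGCC or TGGGCT on both strands, in the 250 bases before each annotated gene start, and a match is a description of letters and not of a binding site. Either form was found upstream of 30 of the 55 loci, 54.5%, and in 19.2% of 27443 such windows in the genome (22.7% of those of tested loci). At least 2 matches that do not overlap lay upstream of 23 loci, 41.8%, against 11.8% of all windows and 14.7% of those of tested loci. The telo box AAACCCTA, another element of such promoters, was found at 3 loci, 5.45%, against 4.49% of all windows and 3.54% of those of tested loci. Of the windows of the 55 loci, 25 reach into another annotated protein-coding gene, and no such count is given for other windows.

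Most matches lay close to the gene start, 53 of 60 within 100 bases, with a median distance of 38 bases. Distances in other windows are not given, so this count has no background. By complex, site II letters were found upstream of 12 of 22 loci of complex I, 0 of 3 of complex II, 9 of 12 of complex III, both of cytochrome c, 3 of 7 of complex IV and 4 of 9 of ATP synthase. Inside the set the median log2 fold change was -0.83 for 25 loci without a match, -0.81 for 7 loci with 1 match and -0.94 for 23 loci with at least 2. Over all tested nuclear protein-coding loci, 30.0% of those without a match, 35.6% of those with 1 match and 40.2% of those with at least 2 were called lower.

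Sequences are shown for 8 loci named above: both cytochrome c genes, of which 1 was called and 1 was not, and genes of complexes I, III and IV and of ATP synthase with at least 2 matches. They were chosen after their values and matches had been seen, and none of the windows shown reaches into another annotated protein-coding gene. Each is the last 140 bases before the annotated gene start in TAIR10.1, credited to RefSeq, written 5′ to 3′ on the strand of the gene, with the site II letters of either strand in capitals.
CYTC-1 chr1:8079147-8079286 (plus strand): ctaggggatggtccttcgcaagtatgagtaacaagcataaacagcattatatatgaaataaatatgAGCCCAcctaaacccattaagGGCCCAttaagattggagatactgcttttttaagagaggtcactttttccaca
CYTC-2 chr4:6276808-6276947 (plus strand): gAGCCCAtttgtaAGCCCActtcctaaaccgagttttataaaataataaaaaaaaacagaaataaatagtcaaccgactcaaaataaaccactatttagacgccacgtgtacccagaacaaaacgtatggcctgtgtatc
MEE4 chr1:1291113-1291252 (minus strand): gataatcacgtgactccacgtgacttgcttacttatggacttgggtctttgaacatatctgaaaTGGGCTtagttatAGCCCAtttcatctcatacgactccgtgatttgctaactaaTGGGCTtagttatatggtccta
AT4G32470 chr4:15671250-15671389 (minus strand): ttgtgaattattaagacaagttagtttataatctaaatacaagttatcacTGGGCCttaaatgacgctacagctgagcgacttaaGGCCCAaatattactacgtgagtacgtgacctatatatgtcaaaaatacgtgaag
AT4G37830 chr4:17788835-17788974 (minus strand): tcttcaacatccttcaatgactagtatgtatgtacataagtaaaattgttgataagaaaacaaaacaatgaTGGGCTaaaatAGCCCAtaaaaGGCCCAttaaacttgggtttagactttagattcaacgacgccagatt
AT2G47380 chr2:19440783-19440922 (plus strand): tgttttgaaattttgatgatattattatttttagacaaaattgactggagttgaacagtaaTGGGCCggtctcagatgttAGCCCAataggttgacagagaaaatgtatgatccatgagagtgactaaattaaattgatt
AT3G62400 chr3:23089456-23089595 (plus strand): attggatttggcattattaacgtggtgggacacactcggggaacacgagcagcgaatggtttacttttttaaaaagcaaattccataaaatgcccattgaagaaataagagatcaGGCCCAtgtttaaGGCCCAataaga
ATP3 chr2:14021186-14021325 (minus strand): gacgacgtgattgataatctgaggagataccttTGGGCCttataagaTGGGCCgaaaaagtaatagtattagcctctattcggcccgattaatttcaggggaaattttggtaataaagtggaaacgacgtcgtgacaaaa
CYTC-1 and CYTC-2 each hold 2 matches, in CYTC-1 at 68 and 47 bases from the gene start and in CYTC-2 at 133 and 121 bases. The gene that fell and the gene that did not pass the test are therefore alike in the count of these letters and differ in their place. AT4G37830, the locus with the highest level, holds 3 matches between 41 and 63 bases from its start.

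Members of the set lie on all 5 chromosomes, with 11, 6, 12, 5 and 21 loci on chromosomes 1 to 5. Among annotated protein-coding genes, AT5G08670, AT5G08680 and AT5G08690 are direct neighbours, and so are AT5G13430, AT5G13440 and AT5G13450.

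Further subunits of the same complexes also fell, most of them. In a list of 36 further nuclear subunits, 32 passed the filter, and of these 30 fell and 1 rose, against 30.9% of all features called lower and 27.6% called higher, with a median log2 fold change of -1.02. AT5G18800, a complex I subunit, fell from 59.0, 54.6 and 57.0 FPKM to 13.5, 20.0 and 20.3 FPKM (-1.66 ± 0.15 SE; limma adjusted p = 0.000127). AT3G08610, another complex I subunit, fell from 264, 262 and 261 FPKM to 78.9, 87.2 and 88.3 FPKM (-1.63 ± 0.053; 3.75e-07). The subunit that rose was SDH4 (AT2G46505), a membrane anchor of complex II, at 35.6, 34.5 and 29.9 FPKM in wild-type and 44.5, 40.8 and 42.4 FPKM in the transgenic libraries (0.35 ± 0.070; limma adjusted p = 0.00268), or 0.55 under quantile normalization. It was named after its value was seen.

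Loci for subunits encoded in the mitochondrial genome mostly did not share the direction of the nuclear loci. Of 24 such loci, listed by hand from their locus codes, 19 passed the filter, 16 rose and 1 fell, with a median log2 fold change of 0.67. Among all features, 27.6% were called higher and 30.9% lower. The reference gave no gene names for these codes, and several loci may be parts of the same gene, so the counts are of loci and not of subunits. ATMG00270, ATMG00480 and ATMG00665 were listed at 0 FPKM in every library, so the list does not cover all subunits. ATMG00650 went from 14.0, 16.7 and 25.6 FPKM to 68.9, 71.5 and 75.1 FPKM (1.95 ± 0.21 SE; limma adjusted p = 0.000554), and ATMG01320 from 116, 117 and 106 FPKM to 262, 195 and 203 FPKM (0.94 ± 0.11; 0.000187). The locus that fell, ATMG01080, was the most abundant, at 3616, 3828 and 3313 FPKM against 2872, 2909.9 and 3038 FPKM (-0.28; limma adjusted p = 0.00698), and its change was -0.75 under quantile normalization. Chromosome 2 of Col-0 carries near-identical copies of mitochondrial DNA, so reads of these loci may be split. The medians were between 0.60 and 0.73 under all 18 alternatives, the scalings included. Some alternatives could not move these loci. No lengths were known for them, so the length correction left their values as they were. Each had 1 listed transcript, so its major isoform was the whole locus.

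Nuclear genes of the tricarboxylic acid cycle and of mitochondrial carriers and import fell too, with smaller medians, beside 30.9% of all features called lower. In a list for the tricarboxylic acid cycle, which makes the NADH and succinate that feed the chain, 25 of 26 tested loci fell and 0 rose. The median was -0.47, and the list also holds pyruvate dehydrogenase subunits and NAD-dependent malic enzymes. The leading genes were mMDH1 (AT1G53240), a malate dehydrogenase, which fell by 1.04, and AT5G08300, a subunit of succinyl-CoA ligase, which fell by 0.97. Among 12 tested carriers, channels and import receptors, 11 fell and 0 rose, with a median of -0.43. VDAC3 (AT5G15090), an outer membrane channel, fell by 1.01, and AAC1 (AT3G08580), an ADP/ATP carrier of the inner membrane, went from 416, 409 and 435 FPKM to 241, 243 and 245 FPKM (-0.79 ± 0.046 SE; limma adjusted p = 4.39e-06). The assembly factors of complex IV did not share this count. Of 6, only COX10 (AT2G44520) fell, by 0.31, the other 5 did not pass the test, and the median was -0.12.

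A list of alternative respiration, which holds enzymes that bypass the proton-pumping complexes and uncoupling carriers that let protons back across the membrane, moved in both directions. Of its 10 tested genes, 4 rose and 4 fell, against 27.6% of all features called higher and 30.9% called lower, with a median of 0.07. The 4 that rose were bypass enzymes, and those that fell were 2 bypass enzymes and 2 uncoupling carriers. NDB4 (AT2G20800), an external NADH dehydrogenase, was at 0.0638, 0.296 and 0.318 FPKM in wild-type and at 2.06, 2.21 and 1.93 FPKM in the transgenic libraries (1.84 ± 0.15 SE; limma adjusted p = 2.35e-05), or 2.85 with a pseudocount of 0.1. AOX1C (AT3G27620), an alternative oxidase, was at 0.296, 0.316 and 0.383 FPKM against 0.962, 0.592 and 0.863 FPKM (0.64 ± 0.14; limma adjusted p = 0.00365), or 1.05 with that pseudocount. Both genes were under 0.5 FPKM in every wild-type library and passed the filter through the transgenic libraries alone. Being tested thus depended on a higher transgenic level, and their calls are no independent support for a rise in the list. At least 4 fragments lay behind each NDB4 value by the step estimate. With a filter of 1 FPKM, AOX1C was not tested, and 3 of 9 genes rose and 4 fell. Named after their values were seen, the main alternative oxidase gene AOX1A (AT3G22370) rose by 0.23, from a mean of 18.9 to one of 22.2 FPKM (0.38 under quantile normalization), and the internal NADH dehydrogenase gene NDA1 (AT1G07180) rose by 0.54. Also named after their values were seen, the NAD(P)H dehydrogenase genes NDB1 (AT4G28220) and NDC1 (AT5G08740) fell by 0.30 and 0.49 (limma adjusted p = 0.00311 and 0.000198). The uncoupling carriers PUMP1 (AT3G54110) and UCP2 (AT5G58970) fell by 0.52 and 0.54 (limma adjusted p = 0.000304 and 0.000773).

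Of 8 tested genes known to respond to disturbed mitochondria, which include NDB4 and AOX1A, 5 rose and 1 fell, against 27.6% of all features called higher and 30.9% called lower, with a median of 0.29. The gene that fell was AT2G21640, a marker of the oxidative stress response, named after its value was seen. It went from a mean of 10.4 to one of 6.85 FPKM (-0.59, limma adjusted p = 0.0173). That call was lost without the length trend and without wild-type replicate 1. BCS1 (AT3G50930), an ATPase of the outer mitochondrial membrane, went from 1.79, 1.92 and 1.56 FPKM to 6.19, 4.65 and 5.05 FPKM (1.36 ± 0.11 SE; limma adjusted p = 2.24e-05). The groups did not overlap for BCS1 or for NDB4, but NDB4 passed the filter through the transgenic libraries alone. The nuclear genes of the plastid ATP synthase, an enzyme of the same build as the mitochondrial one, gave 2 of 4 loci higher and 0 lower, beside the same shares of all features. ATPD (AT4G09650), the delta subunit, rose by 0.61, from 606, 595 and 598 FPKM to 933, 899 and 913 FPKM (limma adjusted p = 1.53e-05), or by 0.38 under quantile normalization. ATPC1 (AT4G04640), a gamma subunit, rose by 0.17 (limma adjusted p = 0.0139), a call lost under quantile normalization, without wild-type replicate 2 and without transgenic replicate 3. Differences between these lists and the 55 loci are given as counts and medians, and were not tested.

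**Figure D4:**
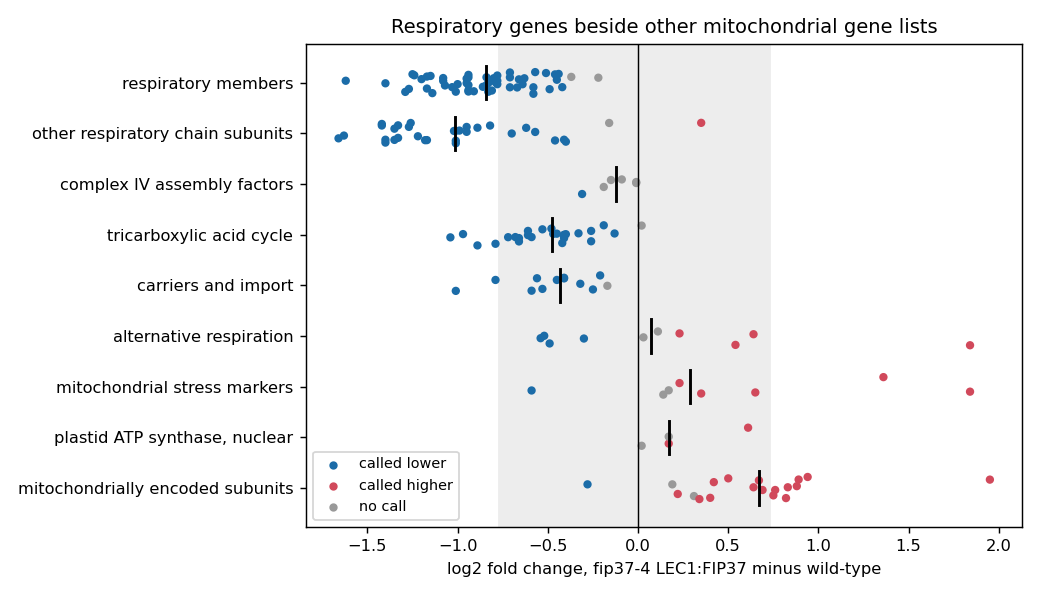
Log2 fold change (transgenic minus wild-type) of each tested locus in the set of 55 and in 8 other mitochondrial or plastid gene lists, with blue for loci called lower, red for loci called higher, grey for no call and a black bar at each median; the grey band spans the 5th to 95th percentile of all features. The 55 loci and the 32 further subunits lie mostly left of the band's centre with medians of -0.84 and -1.02. The loci of mitochondrially encoded subunits have a median of 0.67.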

How the data were processed

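RNA was sequenced from whole seedlings with directional libraries of total RNA depleted of ribosomal RNA, 3 per genotype, per the labels' protocols. The deposited values are FPKM for each transcript. Per the submitters' processing notes, the authors used TopHat2 2.0.9, Cufflinks 2.1.1 and the build TAIR10. No file header names the unit, which was inferred from Cufflinks and is not contradicted by the values. The sources used here do not give the strand setting of the counting, so overlapping genes on opposite strands may share reads.

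Each file lists 36104 transcripts, which were summed per locus. Symbols, products, lengths and sequences came from RefSeq TAIR10.1, with lengths for 26701 of 27374 annotated loci. Groups were compared with limma 3.58.1 (R 4.3.3) on log2(FPKM + 0.5), which understates changes of low genes, with a mean-variance trend, robust empirical Bayes and genotype as the only term. The fit was tested on simulated data. Shares of paralogs went into exact two-sided permutation tests (SciPy 1.17.1), and coding sequences were aligned with Biopython 1.88. Fragments behind a value were estimated from the smallest steps between values.

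The text names FIP37, per complex the called loci with the largest changes (up to 4) and the locus of highest level, the paralog pairs, and up to 2 called loci per list. Other genes were named after their values were seen. The 55 loci and the lists were chosen with earlier results of these data known. Alternatives were other pseudocounts, filters and scalings, a length correction, the major isoform, plain empirical Bayes, a replicate block and leaving out each library. Fits that left out a library kept the same 19383 features. The sequences shown, and the alternative that joins centring with the length correction, were chosen after seeing the data.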

Additional observations from a re-analysis of the deposited data

How the results depend on the processing

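Under 18 alternatives, 52 to 54 of the 55 loci were called lower and 0 higher, and of 990 values of single loci 983 kept their direction and their side of the threshold. The 5 that newly passed it were of CYTC-2 and AT5G61310, and the 1 that no longer passed was of AT5G25450 (-0.25, limma adjusted p = 0.0586). AT5G61310 reversed to 0.22 with its major isoform alone (limma adjusted p = 0.677), and the cause was not tested. The median of the 55 loci was -0.63 with quantile normalization, -0.76 with centring and length correction together, and between -0.86 and -0.77 otherwise, while that of nuclear loci lay within -0.04 and 0.01. Quantile normalization made the changes of 18 loci smaller by over 1.5 times, to between -0.63 and -0.07. Leaving out 1 library gave 53 to 54 loci lower. Over all features, 4476 to 5697 were called higher and 5274 to 6129 lower. The share of AT1G79010 in its pair differed by -0.273 points, and by -1.91 to 0.764 when 1 library was left out (0.764 without transgenic replicate 2 and 0.33 without transgenic replicate 3). Deviations of same-numbered libraries correlated at -0.028, -0.049 and -0.057, so no pairing by replicate number was seen in the values. The labels do not say whether same-numbered libraries were grown together, so pairing in the design stays unknown. A fit with the replicate block called 54 loci lower and 0 higher, with 5075 features higher and 5804 lower, and added AT5G61310 (-0.37, limma adjusted p = 0.0139). FPKM carry no counts, so intervals that need depth are not given.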
